A study of Mus musculus with 6 samples.

Results

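The F-box genes of mouse adipose tissue were examined in RNA-seq libraries of 3 samples from mice given radix Angelica sinensis (RAS), a root of Chinese medicine, in their feed and of 3 control samples. Members were chosen by symbol, taking each gene whose symbol begins with Fbxo, Fbxl or Fbxw and a digit, which gave 65 of the 19928 genes in the table. The family was taken up because of the difference of Fbxo21 in this same comparison, so the differences between RAS and control below are a description of the members and none of them is tested. The mice were of the KM strain, an outbred stock, and RAS was given at 10.00 g per kg body weight. A high-fat diet, with the question of whether the root acts against obesity, is named in the title of the series, while the control samples carry only the word control as their diet. The sources used here give no depot, sex or age and do not tell single animals from pools, so the errors measure the spread between these samples, which may be technical.

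F-box proteins are the interchangeable substrate receptors of the SCF ubiquitin ligases. The F-box binds Skp1, which hangs on the cullin scaffold Cul1, and the RING protein Rbx1 at the other end of the cullin brings in the E2 enzyme that carries ubiquitin. The rest of each F-box protein picks the substrate: Fbxw proteins do so with WD40 repeats, Fbxl proteins with leucine-rich repeats, and Fbxo proteins with other domains or none that is shared. In fat and muscle, receptors of this family act on insulin signalling, iron handling and muscle protein loss.

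Fbxo21 carries an F-box and a YccV-like domain. In human cells it marks the transcriptional inhibitor EID1, in mouse macrophages it attaches nondegradative ubiquitin chains to ASK1 (Map3k5), and in mouse muscle it is induced by FoxO factors during atrophy. The promoter of Fbxo21 is shown because its transcript differed most between the groups, with those of Fbxo31, Fbxo36 and Fbxo33 as other members far out on either side. Each runs from 250 bases before to 50 bases after the RefSeq start (GRCm38.p6) in the direction of the gene. The windows lie at chr5:117976520-117976819 (+) for Fbxo21, chr8:121578757-121579056 (-) for Fbxo31, chr1:84839591-84839890 (+) for Fbxo36 and chr12:59219434-59219733 (-) for Fbxo33. Capitals mark the GC box GGGCGG or its reverse complement, the only one of 4 searched motifs with a match in these windows.
Fbxo21: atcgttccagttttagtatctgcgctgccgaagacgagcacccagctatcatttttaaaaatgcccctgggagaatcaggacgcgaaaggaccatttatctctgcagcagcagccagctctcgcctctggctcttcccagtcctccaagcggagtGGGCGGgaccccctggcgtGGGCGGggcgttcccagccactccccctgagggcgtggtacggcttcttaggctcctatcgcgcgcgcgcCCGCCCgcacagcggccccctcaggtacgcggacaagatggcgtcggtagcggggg
Fbxo31: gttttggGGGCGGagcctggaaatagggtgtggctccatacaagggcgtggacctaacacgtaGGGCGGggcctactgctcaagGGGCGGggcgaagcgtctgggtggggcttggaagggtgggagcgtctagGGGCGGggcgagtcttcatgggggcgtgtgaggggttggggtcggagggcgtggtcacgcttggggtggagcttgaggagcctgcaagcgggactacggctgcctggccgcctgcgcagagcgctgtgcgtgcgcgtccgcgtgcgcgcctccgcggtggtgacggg
Fbxo36: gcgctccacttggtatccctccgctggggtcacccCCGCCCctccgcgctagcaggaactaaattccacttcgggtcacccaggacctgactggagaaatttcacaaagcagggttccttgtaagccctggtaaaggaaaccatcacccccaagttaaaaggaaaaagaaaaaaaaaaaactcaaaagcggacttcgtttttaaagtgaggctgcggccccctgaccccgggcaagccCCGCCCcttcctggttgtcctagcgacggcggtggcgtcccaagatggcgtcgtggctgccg
Fbxo33: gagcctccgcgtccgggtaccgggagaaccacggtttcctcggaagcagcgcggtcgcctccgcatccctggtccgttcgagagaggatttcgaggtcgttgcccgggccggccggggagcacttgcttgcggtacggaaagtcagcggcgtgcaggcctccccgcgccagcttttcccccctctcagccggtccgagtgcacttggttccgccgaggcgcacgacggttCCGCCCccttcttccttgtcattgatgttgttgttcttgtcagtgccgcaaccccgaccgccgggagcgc

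In the Fbxo21 window 63.7% of the bases were G or C, and 3 GC boxes began at positions -95, -76 and -6 from the start. The Fbxo31 window had 69.7% G or C and 4 GC boxes, that of Fbxo36 57.0% and 2, and that of Fbxo33 67.0% and 1. RefSeq windows were matched for 48 of the 65 members (68 windows) and the other 17 members had none in the table used, Fbxw4 and Fbxw8 among them. Fbxl15, the member with the most negative difference, was matched, but its sequence is not shown. The median window of the members had 60.3% G or C, against 52.7% over all 32851 windows. The GC box was in 43 of the 68 member windows (63.24%), against 35.66% of all windows. The other motifs were the FoxO element GTAAACA, the E-box CACGTG and the CCAAT box CCAAT, each searched on both strands. GTAAACA was in 0 of the 68 member windows, against 3.65% of all windows. CACGTG was in 5 (7.35%; 7.15% of all windows) and CCAAT in 22 (32.35%; 37.41%). These are matches of letters in a window and say nothing on whether a factor binds there.

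Depth, estimated from the scaled counts, ranged from 14.38 to 15.75 M assigned reads. In a library 12462 to 12641 genes reached 1 FPKM, and the log2 values of any pair of libraries correlated at 0.978 to 0.99 over genes. Markers of fat cells were high in all 6 libraries, with the summed FPKM of 8 adipocyte genes at 44953 to 64640 in RAS and 34851 to 40938 in control. Fabp4 made up most of that sum, and 5 of the 8 genes had a higher mean in RAS, while Lep was lower in every RAS sample (293 to 334 FPKM in RAS, 424 to 615 in control). Markers of brown or beige fat summed to 139, 203 and 967 FPKM in RAS 1 to 3, against 313, 116 and 53.2 in control 1 to 3, so RAS 3 stood apart in that list. The 11 skeletal muscle markers summed to 23.2 to 61.7 FPKM in RAS, against 70.5 to 209 in control, and all 11 had a lower mean in RAS. That sum was mostly Acta1; the other 10 genes summed to 1.99, 2.17 and 2.41 FPKM in RAS 1 to 3, against 29.3, 1.91 and 3.68 in control 1 to 3, so control 1 stood apart. Myh4 and Pvalb were at 0 in some samples. The 5 liver markers summed to 9.71 to 14.1 FPKM in RAS and 9.69 to 159 in control, with control 3 highest and Apoa1, Apoa2 and Ttr at 0 in some samples. In bulk tissue fewer cells of a type and less RNA per cell cannot be told apart.

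Fbxo21 was the member with the clearest difference between the groups. Fbxo21 (NCBI gene 231670; chromosome 5, 117976770 to 118010191) was at 28.0, 32.5 and 32.3 FPKM in RAS 1 to 3, against 10.2, 14.7 and 10.2 FPKM in control 1 to 3. FPKM scales the fragments of a gene by transcript length and library size. Every RAS sample was above every control sample, and control 2 was the highest of the control samples. The means were 30.9 ± 2.56 FPKM in RAS and 11.7 ± 2.59 FPKM in control (SD, n = 3 each), a ratio of 2.646. On the log2(FPKM + 1) scale the difference was 1.35 ± 0.16 (SE). Leaving out each sample in turn moved it between 1.27 and 1.51. The values rested on about 1695, 1966 and 1977 reads in RAS and 639, 1042 and 649 in control, so counting error was small beside the spread between samples. By positive difference it stood 28th of the 12606 genes tested, and 27th to 61st in the alternatives that test the same genes (49th with scaled counts and 61st with a pseudocount of 0.1). Within the family, Fbxo21 stood 4th by mean FPKM in RAS and 17th in control.

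The transcript's weight in the family differed accordingly. Fbxo21 made up 4.74, 6.06 and 5.56% of the summed F-box FPKM in RAS 1 to 3, against 1.83, 2.80 and 1.87% in control 1 to 3. The FPKM of all 65 members summed to 569.8 ± 28.8 in RAS and 542.3 ± 17 in control (SD, n = 3 each). Without Fbxo21 the sums were 538.8 ± 30.6 and 530.6 ± 19.4, which differed by less than the spread within a group.

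The gene model Gm19648 has the same locus as Fbxo21 in the table, so reads of the 2 may be mixed; the labels name no strand-specific step. Gm19648 was at 1.16, 1.12 and 0.636 FPKM in RAS 1 to 3, against 0.293, 0.423 and 0.416 FPKM in control 1 to 3. Its groups did not overlap either, at levels far below those of Fbxo21. The next genes along the chromosome did not share the pattern. Tesc, a calcium-binding protein gene 17.6 kb away, was at 0.462, 0.728 and 1.82 FPKM in RAS and 1.75, 1.46 and 1.92 in control. Fbxw8, itself a member and 54.8 kb away, was at 44.1, 31.1 and 36.2 FPKM in RAS, against 37.1, 37.9 and 36.3 in control. Its log2 difference was -0.01 ± 0.15 (SE), against 1.35 for Fbxo21. Nos1, the neuronal nitric oxide synthase gene 23 kb away, was at or near 0 in every sample, at most 0.0877 FPKM.

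**Figure D1:**
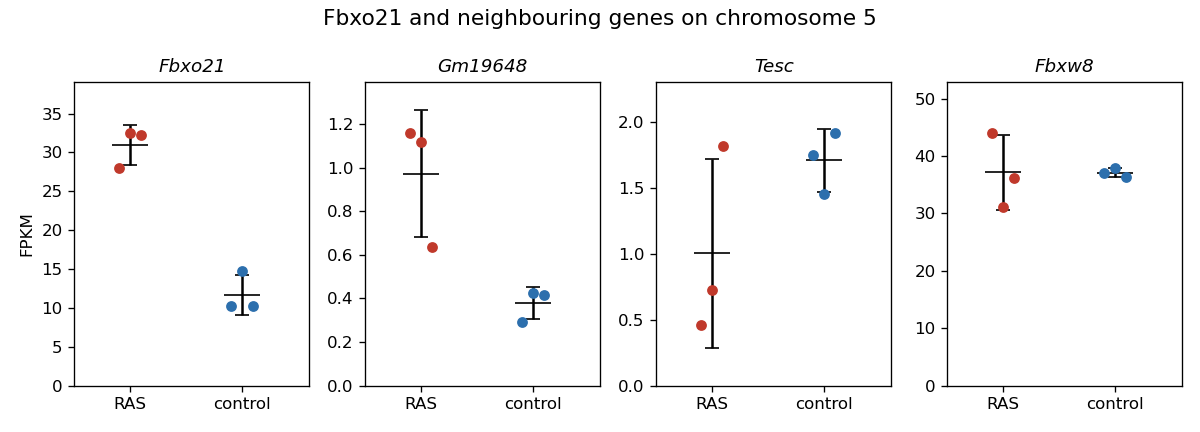
FPKM (vertical axes, each from 0) of Fbxo21, the gene model on its locus and the genes Tesc and Fbxw8 along chromosome 5, in RAS (red, left) and control (blue, right) samples; points are samples, the horizontal mark is the mean and the bar the SD (n = 3 each). The RAS samples of Fbxo21 lay between 28.0 and 32.5 FPKM and the control samples between 10.2 and 14.7, while Fbxw8 overlapped between the groups.

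Among levels, receptors with WD40 repeats and the iron sensor led the family. Of the 65 members, 46 had a mean of at least 1 FPKM over the 6 samples and entered the fit, each with a mean of at least 1 in both groups. Of these, 18 had a mean of 10 FPKM or more. The lowest inside that bound of 1 was Fbxo27 at 1.37 FPKM and the highest outside was Fbxl21 at 0.694 FPKM. The 8 tested Fbxw genes had a median level of 15.7 FPKM, the 25 tested Fbxo genes 8.48 and the 13 tested Fbxl genes 5.05.

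Fbxw8, the receptor that joins the cullin Cul7 and acts on the insulin receptor substrate IRS1 in human and mouse cells, had the highest mean, 37.1 ± 4.17 FPKM (SD, n = 6, as for the levels that follow). Fbxw2, which in human placental cells marks the transcription factor GCM1, was at 36.9 ± 3.88 FPKM. Fbxl5, the iron and oxygen sensor that controls IRP2, was at 33.9 ± 2.79 FPKM. These 3 means lay closer together than the SD of Fbxw8, and in every sample they were above any value of the next member. Fbxo22, which marks KDM4A and BACH1 in human cells, was at 27.7 ± 0.996 FPKM. Fbxo3, Fbxo9, Fbxo18 and Fbxw5 followed at 25.1 to 25.5 FPKM, closer to each other than their SDs of 1.34 to 3.99. Fbxo9 marks TEL2 and TTI1 in human cells, Fbxo18 is a DNA helicase of recombination repair, and Fbxw5 also works with Cul4. Fbxo21 came ninth, at 21.3 ± 10.8 FPKM, an SD that comes from the distance between the groups.

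Below 1 FPKM stood members known from other tissues. Fbxo40, a muscle receptor for IRS1, averaged 0.0452 FPKM in RAS and 0.00725 in control and rested on at most 4 reads. Fbxo43, the meiotic inhibitor of the anaphase-promoting complex in oocytes, had 1 read in RAS 1 and was at 0 in the other samples. Fbxo2, a glycoprotein receptor of brain, averaged 0.301 FPKM in RAS and 0.0896 in control on at most 6 reads. In all, 7 members were at 0 in at least 1 sample. No tested member had a highest sample over 5 times its lowest.

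**Figure D2:**
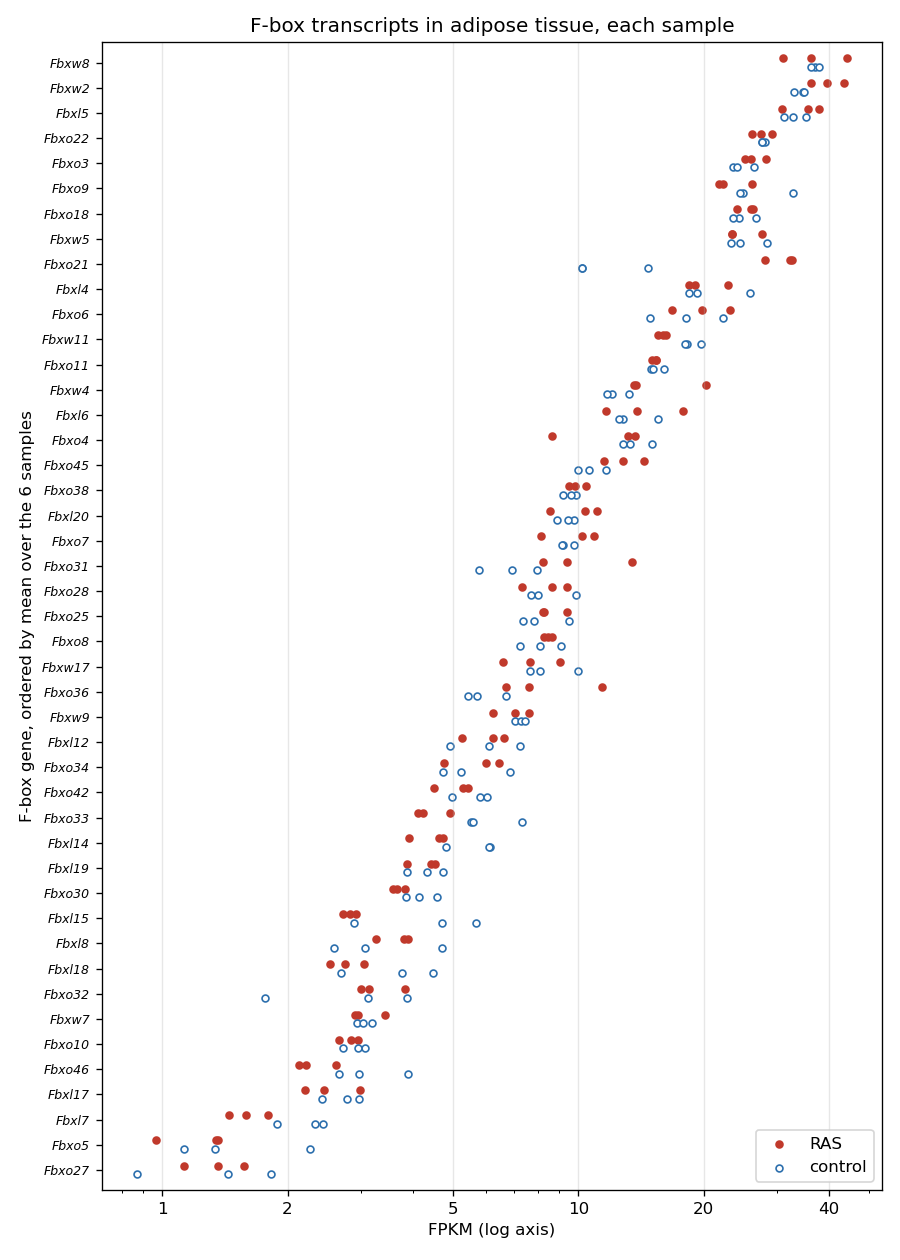
FPKM (horizontal log axis) of the F-box genes with a mean of at least 1 FPKM (1 of the 46 is not drawn), ordered down the page by their mean over the 6 samples; filled red points are RAS samples and open blue points control samples. Most rows overlap, and in the Fbxo21 row the RAS samples lie at 28.0 to 32.5 and the control samples at 10.2 to 14.7.

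Across the family the differences were small and went both ways. Of the 46 tested members, 21 had a higher and 25 a lower mean log2 level in RAS, and the median difference was -0.005 with or without Fbxo21. Over all genes tested the median was -0.038. The direction depended on the scaling: 45.7% of members were higher with FPKM as deposited (43% of all genes), and 63% after quantile normalization (48.2% of all genes) or median-ratio size factors (49.9%). In 36 members (78.3%) the difference was under 0.25 in size, as it was in 73.5% of all genes. The median size of the difference was 0.094 in members and 0.145 in all genes, and the median SD within groups was 0.147 and 0.186.

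No gene of the table passed the test. With limma and Benjamini-Hochberg adjustment, 0 of 12606 genes (0%) had an adjusted p under 0.05, and 1294 (10.3%) had an unadjusted p under 0.05, against 630 expected by chance. Every RAS sample was above every control sample in 5 members, Fbxo21, Fbxo31, Fbxo36, Fbxw4 and Fbxw2, against 5.42% of all genes. Every RAS sample was below every control sample in 6 members, Fbxo33, Fbxo46, Fbxl7, Fbxl14, Fbxw11 and Fbxo30, against 12.5% of all genes. The other 35 overlapped. Since the family was taken up for this comparison, nothing is read from these counts. Leaving out samples can only keep or raise such counts, and likewise the shares over all genes. Without control 3 the higher count was 8 (9.88% of all genes), and without RAS 1 the lower count was 11 (18.5% of all genes). With RAS 3 and control 1 left out together it was 12 higher and 6 lower, where 20.3% and 26.1% of all genes separated.

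**Figure D3:**
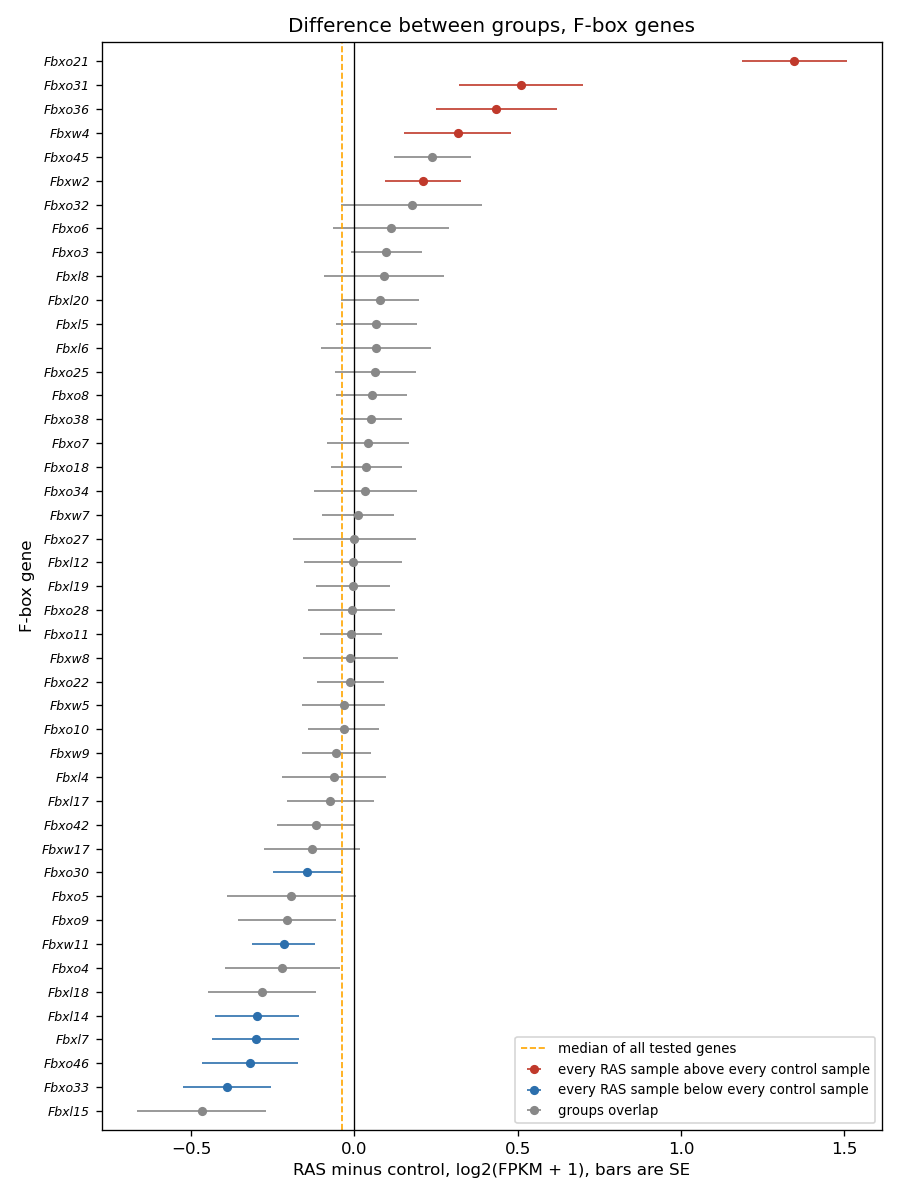
Difference between RAS and control on the log2(FPKM + 1) scale (horizontal axis; positive is higher in RAS) for the tested F-box genes (1 of the 46 is not drawn), with SE bars; red marks genes with every RAS sample above every control sample, blue the opposite and grey those that overlap, and the dashed line is the median of all tested genes, -0.038. Fbxo21 lies at 1.35, the next member Fbxo31 at 0.51, and the lowest, Fbxl15, at -0.47.

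The receptors linked to muscle atrophy did not move together. Fbxo31, which marks cyclin D1 in human cells after DNA damage, was at 9.40, 8.22 and 13.5 FPKM in RAS 1 to 3, against 5.76, 6.93 and 7.96 FPKM in control 1 to 3. Every RAS sample was above every control sample, and RAS 3 stood highest. The log2 difference was 0.51 ± 0.19 (SE), or 0.32 without RAS 3. Fbxo32 (atrogin-1), the muscle atrophy receptor, was at 3.13, 3.83 and 3.01 FPKM in RAS and 1.76, 3.12 and 3.88 in control. The groups overlapped, with control 1 and control 3 at the ends of the range. Its difference of 0.18 ± 0.22 turned to -0.06 without control 1 and was 0.35 without control 3. Fbxo30 (MUSA1), another atrophy receptor of mouse muscle, was at 3.58, 3.83 and 3.67 FPKM in RAS and 4.58, 4.14 and 3.85 in control. The groups were set apart by no more than the gap between 3.83 and 3.85 FPKM (-0.14 ± 0.11, or -0.09 without control 1). The part of the skeletal muscle markers in these values, with Acta1 lower in every RAS sample and the others high in control 1, was not tested.

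Of the 8 tested Fbxw genes, with their WD40 repeats, 3 were higher and 5 lower in RAS. Fbxw2 was at 43.4, 36.1 and 39.6 FPKM in RAS 1 to 3, against 34.7, 34.8 and 32.9 FPKM in control 1 to 3. The separation was narrow, with a log2 difference of 0.21 ± 0.12 (SE). Fbxw4, the gene of the mouse dactylaplasia limb locus, was at 13.7, 13.6 and 20.2 FPKM in RAS and 12.0, 11.7 and 13.2 in control. RAS 3 stood far above RAS 1 and RAS 2, and the difference of 0.32 ± 0.16 became 0.14 without it. Fbxw4 shares its locus with Dpcd, which was at 5.11, 5.91 and 8.65 FPKM in RAS and 6.33, 4.85 and 5.75 in control. Fbxw11 (beta-TrCP2), which marks phosphorylated IkappaB and beta-catenin, was at 16.0, 16.2 and 15.6 FPKM in RAS and 19.7, 18.3 and 18.1 in control. All RAS samples were lower, and the difference was -0.22 ± 0.10. Fbxw7, the receptor for cyclin E and MYC, lay at 2.91 to 3.42 FPKM in RAS and 2.94 to 3.19 in control. Fbxw5 (-0.03 ± 0.13) and Fbxw9 (-0.06 ± 0.11) overlapped between the groups too.

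Among the other members with the most positive differences, Fbxo36 was at 7.60, 6.71 and 11.4 FPKM in RAS 1 to 3, against 5.71, 5.42 and 6.71 FPKM in control 1 to 3. RAS 2 and control 3 were level to 3 digits, and RAS 3 was the highest. The difference of 0.43 ± 0.19 (SE) became 0.23 without RAS 3. Fbxo31, Fbxo36 and Fbxw4 thus all had their highest value in RAS 3, the sample with 967 FPKM of brown or beige fat markers, a relation that was not tested. Fbxo45, which works with the RING protein PAM in neurons, was at 14.3, 12.8 and 11.5 FPKM in RAS and 11.6, 9.98 and 10.6 in control (0.24 ± 0.12), and overlapped only through RAS 3 and control 1. Fbxl21 was under the bound of 1 FPKM, at 0.642 ± 0.254 FPKM in RAS and 0.746 ± 0.395 in control (SD, n = 3 each).

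On the lower side, Fbxl15, which marks SMURF1 in human cells, was at 2.82, 2.92 and 2.72 FPKM in RAS 1 to 3, against 5.66, 2.90 and 4.69 FPKM in control 1 to 3. It had the most negative difference, -0.47 ± 0.20 (SE; -0.30 without control 1), but control 2 lay among the RAS samples, and its lowest sample held 27 reads. Fbxl15 shares its locus with Cuedc2, which was higher, at 16.8 to 19.2 FPKM in RAS and 16.2 to 20.6 in control. Whether reads of Fbxl15 and Cuedc2 were mixed was not tested. Fbxo33, a receptor for the RNA-binding protein YB-1 in human cells, was at 4.92, 4.11 and 4.24 FPKM in RAS and 5.52, 7.31 and 5.58 in control. Every RAS sample was lower (-0.39 ± 0.13), and control 2 was the highest. Fbxl14, which marks the transcription factor Snail, was at 4.72, 3.91 and 4.63 FPKM in RAS and 6.14, 4.81 and 6.11 in control (-0.30 ± 0.13). Fbxl7 was at 1.59, 1.79 and 1.44 FPKM in RAS and 2.33, 2.44 and 1.89 in control (-0.30 ± 0.13). Both separated, Fbxl14 by the narrow gap between RAS 1 and control 2. Fbxo46 was at 2.21, 2.61 and 2.14 FPKM in RAS and 3.89, 2.97 and 2.65 in control. Its groups were set apart by 2.61 in RAS 2 and 2.65 in control 3, at a difference of -0.32 ± 0.15, or -0.20 without control 1. Fbxl18 (-0.28 ± 0.16, or -0.15 without control 1) and Fbxo4, a receptor linked to cyclin D1 (-0.22 ± 0.18, or -0.03 without RAS 2), overlapped. In RAS 2 Fbxo4 had 8.63 FPKM, against 12.8 to 15.0 in the other 5 samples.

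Among receptors of cell division, mitochondria and glycoproteins, those whose differences are not given above differed little. Fbxo31 (0.51), Fbxo4 (-0.22) and Fbxl7 (-0.30), described above, belong to the same preset role groups. Fbxo5 (Emi1), which restrains the anaphase-promoting complex, was at 1.35, 1.36 and 0.965 FPKM in RAS and 2.27, 1.13 and 1.34 in control. Control 1 was the highest, as it was in the summed markers of dividing cells, which were 6.25 to 9.84 FPKM in RAS and 21.6, 5.3 and 9.13 in control 1 to 3. The difference of Fbxo5 was -0.19 ± 0.20 (SE), or -0.009 without control 1. Whether these are linked was not tested. Fbxo11, which marks BCL6, had the narrowest range for its level among the named members, 15.0 to 15.4 FPKM in RAS and 14.9 to 16.0 in control. Fbxo28 (-0.01 ± 0.13) and Fbxl12 (-0.004 ± 0.15) overlapped as well.

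Fbxl4, a mitochondrial protein whose loss depletes mitochondrial DNA in humans, was at 18.4 to 22.9 FPKM in RAS and 18.4 to 25.8 in control. Fbxo7, which acts with PINK1 and parkin, was at 8.13 to 10.9 FPKM in RAS and 9.14 to 9.77 in control. Fbxo9 was at 21.8 to 26.2 FPKM in RAS and 24.4 to 32.8 in control (-0.21 ± 0.15, or -0.08 without control 1). Each of these groups overlapped. The iron sensor Fbxl5 was at 30.8 to 37.8 FPKM in RAS and 31.1 to 35.3 in control, a difference of 0.07 ± 0.12. Of the 5 glycoprotein receptors, Fbxo6 was at 19.9 ± 3.20 FPKM in RAS and 18.4 ± 3.68 in control (SD, n = 3 each) and Fbxo27 at 1.35 ± 0.223 and 1.38 ± 0.480, while Fbxo2, Fbxo17 and Fbxo44 were under 1 FPKM. Fbxl19, which binds CpG islands through a zinc finger, was at 4.28 ± 0.350 FPKM in RAS and 4.30 ± 0.424 in control.

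Loci shared with other genes may mix the reads of some members. Such a locus holds 18 members, 13 of them tested. Fbxo22 shares its locus with Nrg4, the neuregulin secreted by fat, which was at 46.1, 59.9 and 36.6 FPKM in RAS 1 to 3, against 31.3, 28.2 and 21.6 FPKM in control 1 to 3. Every RAS sample of Nrg4 was above every control sample, while Fbxo22 was at 29.1, 26.0 and 27.5 FPKM in RAS and 28.1, 27.7 and 27.6 in control. The level of Fbxo22 did not follow that of its partner, and whether their reads were mixed was not tested.

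The rest of the SCF machinery was measured in lists that hold no member of the family, and no gene in them passed the test. Of 7 tested core and exchange genes, 4 were higher and 3 lower in RAS and 0 passed, with a median log2 difference of 0.007. Skp1a (Skp1), the adaptor that every F-box binds, was at 135.5, 137.0 and 169.3 FPKM in RAS 1 to 3, against 123.6, 107.8 and 117.3 FPKM in control 1 to 3. All RAS samples were higher, at a difference of 0.33 ± 0.15 (SE) with an adjusted p of 0.493 in limma. Rnf7, the RING protein paired with Cul5, was at 35.2, 36.8 and 41.2 FPKM in RAS and 61.6, 40.3 and 46.3 in control (-0.36 ± 0.17, or -0.19 without control 1; adjusted p = 0.530 in limma). Cul1 was at 23.2 to 25.9 FPKM in RAS and 24.2 to 26.6 in control, and Rbx1 averaged 23.9 ± 4.44 and 23.7 ± 3.46 (SD, n = 3 each). The exchange factor Cand1 differed by -0.13 ± 0.11, or -0.07 without control 1.

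Cullin ligases are switched on by attachment of the ubiquitin-like protein Nedd8, and the COP9 signalosome takes it off. Of 13 tested genes of Nedd8 conjugation 4 were higher, 9 lower and 0 passed (median -0.094), and of 9 of the signalosome 3 were higher, 6 lower and 0 passed (median -0.035). Nub1, which lowers Nedd8 levels, was at 20.3, 20.9 and 22.9 FPKM in RAS and 16.2, 15.8 and 19.0 in control. The groups did not overlap, and limma gave an adjusted p of 0.431 for the difference of 0.32 ± 0.12 (SE). Gps1, a signalosome subunit, was at 32.1, 27.8 and 28.9 FPKM in RAS and 37.0, 32.6 and 33.5 in control (-0.21 ± 0.12; adjusted p = 0.581 in limma). The other named genes of both lists overlapped: Dcun1d3 (-0.25, or -0.38 without control 3), Ube2f (-0.22, or -0.13 without RAS 2 and -0.35 without RAS 3), Cops6 (0.14, or 0.03 without RAS 3) and Cops8 (-0.10), in log2 differences. The list of E2 genes had 9 tested genes, among them Arih1, which encodes a ubiquitin ligase and not an E2. Of these 9 genes 2 were higher, 7, with Arih1, were lower and 0 passed (median -0.086). Ube2d1 was at -0.25 and Ube2g2 at -0.22, and both overlapped. Ube2g2 turned to 0.009 without RAS 2. Ube2d2, at -0.22, did not overlap, with 13.2 to 15.8 FPKM in RAS and 16.1 to 17.9 in control.

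Of 8 F-box genes sought under other symbols 6 were found, and 3 of those reached the mean of 1 FPKM, Skp2 and Ccnf not among them. Fbh1, also sought, is the RefSeq symbol of the member Fbxo18, which was tested in the family and not in this list. Of the 3 tested genes 1 was higher, 2 lower and 0 passed (median -0.044). They were the histone demethylase genes Kdm2a (-0.09 ± 0.14, SE) and Kdm2b (0.07 ± 0.11) and Btrc, the close relative of Fbxw11 (-0.04 ± 0.12), of which Kdm2a and Btrc turned positive without RAS 3. Ect2l was not analysed here. Of 16 other cullins and adaptors 7 were higher, 9 lower and 0 passed (median -0.024), and those with the smallest p were Cul5 (-0.18, or -0.10 without control 1), Ddb2 (0.17) and Dcaf7 (-0.17, or -0.09 without RAS 3). Every RAS sample of Cul5 was below every control sample, by the gap between 6.29 and 6.42 FPKM, while Ddb2 and Dcaf7 overlapped. Cul7, the scaffold that Fbxw8 joins, averaged 8.49 ± 1.16 FPKM in RAS and 9.52 ± 0.562 in control (SD, n = 3 each).

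Genes of known substrates split evenly, 9 higher and 9 lower of 18 with 0 past the threshold (median 0.057). Map3k5 (ASK1), a substrate of Fbxo21, was at 10.0, 8.95 and 12.0 FPKM in RAS 1 to 3, against 7.34, 8.15 and 9.04 FPKM in control 1 to 3. The groups overlapped, and limma gave an adjusted p of 0.501 for the difference of 0.30 ± 0.13 (SE), which became 0.20 without RAS 3. Eid1, the other substrate, averaged 29.3 ± 0.403 FPKM in RAS and 29.9 ± 2.05 in control (SD, n = 3 each). Myc, a substrate of Fbxw7 and Btrc, was at 6.10, 6.39 and 7.77 FPKM in RAS and 8.96, 10.3 and 10.8 in control. Every RAS sample was lower, at -0.51 ± 0.13, with an adjusted p of 0.285 in limma. Transcript levels do not show how much of a protein is marked by its ligase.

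The FoxO factors, which induce Fbxo21 in mouse muscle, differed in direction. Foxo1 was at 27.1, 21.2 and 23.7 FPKM in RAS 1 to 3, against 33.1, 36.0 and 38.5 FPKM in control 1 to 3. All RAS samples were lower, while Fbxo21 was higher in the same samples, a relation that was not tested. The difference of Foxo1 was -0.56 ± 0.13 (SE), with an adjusted p of 0.274 in limma. Foxo4 (0.15 ± 0.10) and Foxo3 (0.10 ± 0.16) overlapped, and Foxo3 turned to -0.06 without control 1. Of these 3 tested genes 2 were higher, 1 lower and 0 passed (median 0.098); Trim63 was not analysed here. Over the 8 lists, 1 gene each of the Nedd8, substrate and FoxO lists that stand above had an unadjusted p under 0.05, namely Nub1, Myc and Foxo1, beside 10.3% of all genes.

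**Figure D4:**
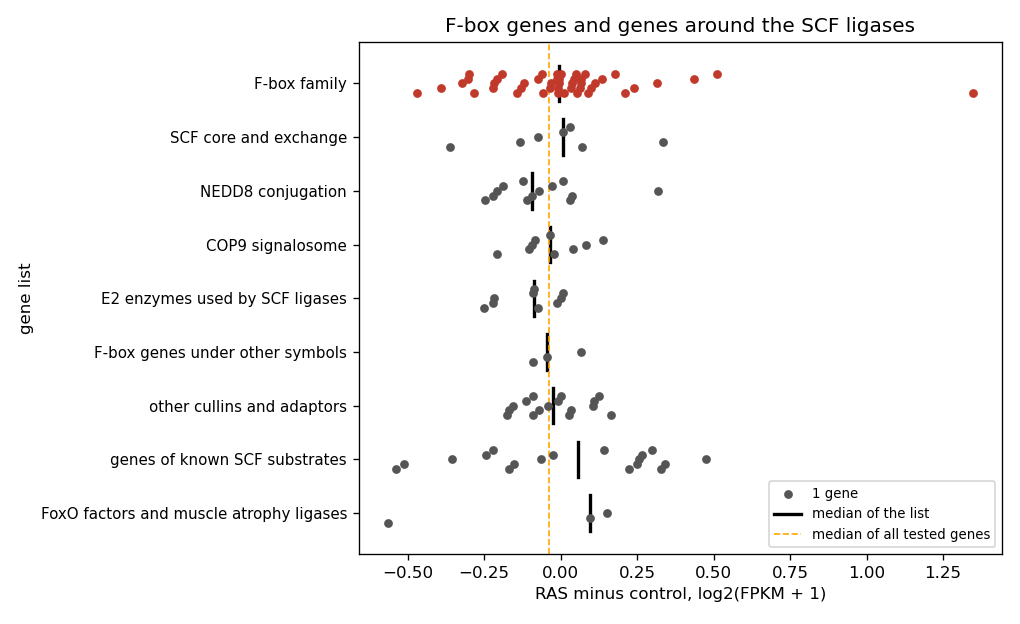
Difference between RAS and control on the log2(FPKM + 1) scale (horizontal axis; positive is higher in RAS) for the tested F-box genes (red, top row) and 8 lists of genes around the SCF ligases (grey); each point is a gene, the black mark the median of its list and the dashed line the median of all tested genes, -0.038. List medians lie between -0.094 and 0.098, and Fbxo21 lies apart at 1.35.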

How the data were processed

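Poly(A) RNA of adipose tissue was sequenced as TruSeq libraries on an Illumina HiSeq instrument, per the labels' protocols, in 3 RAS and 3 control samples. The authors deposited FPKM values, used here unchanged; the submitters' processing notes name the tools TopHat2 2.0.9 and Cufflinks 2.1.1. The sources used here give no build, annotation or filter. Table starts count from 0, since the start plus 1 equalled the RefSeq GRCm38.p6 start for 49.04% of 15266 genes, and coordinates are printed counted from 1. The authors' deposited count signal was scaled: in each sample 99.31 to 99.5% of its low values fell on multiples of a fixed step (tolerance 0.05 reads). Reads given here are estimates, that signal divided by the step. They were not accepted as recovered reads, so no count model was run. The RAS columns carry the group name of the treatment protocol, the control columns are the other numbered set, by elimination, and 4 columns of group values were not used.

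The 12606 genes averaging at least 1 FPKM were fitted with limma 3.58.1 in R 4.3.3 (lmFit and trended eBayes) on log2(FPKM + 1), RAS minus control, two-sided, with Benjamini-Hochberg adjustment over all of them and a threshold of 0.05; this scale understates the change of low genes. The fit was checked on simulated data with independent noise. The planted differences were larger than any log2 difference reported here except that of Fbxo21, so smaller ones were not checked. An exact test of 3 samples against 3 cannot go below p = 0.10. Members and lists were chosen with earlier results of these data known. Named are Fbxo21, the 8 members with the highest mean, the 8 largest differences on each side, preset role groups and, per pathway list, the 3 genes with the smallest p (where fewer than 3 passed); Cul1, Rbx1, Cul7, Eid1 and locus neighbours were chosen after their values were seen. Alternatives were a pseudocount of 0.1, no minimum or a mean of at least 5 FPKM, quantile normalization, median-ratio size factors, a block for the replicate number, and leaving out each sample. Chosen after seeing the data were the scaled counts and leaving out both RAS 3 and control 1. Other software was Python 3.11.15, pandas 2.3.3, numpy 2.4.6 and matplotlib 3.10.9. The values of 1 tested member and 1 substrate gene that the naming rule includes are not reported here, but both are in the counts.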

Additional observations from a re-analysis of the deposited data

How the results depend on the processing

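Fbxo21 kept its direction in all 14 alternatives, with a log2 difference of 1.24 (RAS 3 and control 1 left out together) to 1.51 (without control 2). The 5 members above every control sample stayed so with quantile normalization, median-ratio size factors and scaled counts. The other alternatives used the same FPKM values or fewer samples, so they could not undo a separation. The count of members above every control sample was 8 after quantile normalization (7.61% of all genes) and 10 with scaled counts (7.97%). It was 12 with RAS 3 and control 1 left out together (20.3%), and 5 to 8 when each sample was left out (7.28 to 13.3%). Leaving out samples could only keep or raise it. The count of members below every control sample was 3 of 33 tested with a mean of at least 5 FPKM (12.8% of all genes), 3 after quantile normalization (9.54%) and 6 to 11 when each sample was left out (16.8 to 19.4%). Of the 6 members below every control sample in the main fit, 3 stayed so after quantile normalization, 4 with median-ratio size factors and 3 with scaled counts. Genes past the limma threshold over the whole table were 0 in all alternatives except some that left samples out (0 to 2 for single samples and 3 with RAS 3 and control 1 out together), and none was an F-box gene. Single genes outside the family that changed sign were Ube2g2 (-0.462 to 0.009 when each sample was left out), Kdm2a (-0.19 to 0.025, and 0.1 with RAS 3 and control 1 out), Btrc (-0.111 to 0.024, 0.001 after quantile normalization and 0.048 with both out) and Foxo3 (-0.058 to 0.235, and -0.013 with both out). Leaving out samples left fewer of them, and otherwise the cause was not tested. Over the alternatives, 780 values of single genes counted as unchanged. For named members that meant a shift within the spread between replicates, and 12 values moved by more than that. For list genes it meant only the same sign and no new call, so shifts in size were not counted there. Another 8 values, all of list genes, changed sign. The groups share replicate numbers, but deviations of same-numbered samples correlated at 0.178, 0.096 and 0.219, so the numbers were not taken to pair samples, although each sample correlated best with its own number. With the replicate block 0 genes passed, 1663 had an unadjusted p under 0.05 (1294 without it), and Fbxo21 stayed at 1.35 with an SE of 0.124. The 19 members under 1 FPKM rested on at most 108 reads in any sample, and small differences there were not detectable at this depth.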
